A study of Mus musculus with 6 samples.

Results

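Matrix metalloproteases, ADAM and ADAMTS proteases and their inhibitors, the TIMPs, were examined in B16-F1 melanomas grown in mice with and without Stat2. They were taken as every gene whose annotated symbol is Mmp, Adam, Adamts or Timp followed by a number and at most 1 letter, without Mmp8 and Mmp9, and each was read from its brightest probe set naming that gene alone. This gave 75 of 22180 genes on the array, of which 20 were Mmp, 33 Adam, 18 Adamts and 4 Timp genes. Expression was measured in 6 tumours at day 20 on Affymetrix arrays. In 3 tumours the host was a WT mouse of C57BL6 background, and in the other 3 it was a Stat2 KO mouse of the same background. All hosts were inoculated at the flank with the same kind of B16-F1 cells, a pigmented mouse melanoma line, which the labels do not describe as lacking Stat2. The sources used here give no host age or sex. The submitters describe the tumours of Stat2 KO hosts as larger, so the host genotype and tumour size cannot be told apart. Whether every tumour grew in a different mouse is not stated, and p-values then cover only the spread from tumour to tumour.

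Matrix metalloproteases are zinc enzymes that are made as inactive precursors, opened outside the cell or at its surface, and then cut collagens, gelatin, elastin and other matrix proteins. ADAMs are membrane-anchored relatives that release growth factors, cytokines and receptors from the cell surface, and ADAMTS enzymes are secreted relatives that trim proteoglycans and procollagens. The TIMPs block the active site of these enzymes. In tumours the enzymes are made by cancer cells as well as by fibroblasts, vessels and macrophages. Fewer cells of a type and less RNA per cell cannot be told apart in RNA from whole tumours.

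Pigment cell markers were at the level a melanoma should have: all 11 measured markers read above 95% of olfactory receptor genes. These receptors belong to the nose and served as a guide to background. The median array value lay between 6.06 and 6.22 (log2) in the 6 arrays, and correlations between arrays ran from 0.964 to 0.986 across genes. Stat2 itself differed by -0.31 (log2, SE 0.126; limma adjusted p = 0.532), with Stat2 KO host values of 6.45, 6.48 and 6.33 below WT values of 6.79, 6.70 and 6.70. The host genotype came with a shift that followed the level of a probe set. Of 1105 olfactory receptor genes, 903 read higher in Stat2 KO hosts, with a median difference of 0.22 log2 units, whereas 6323 of the 8827 genes brighter than 95% of them read lower, with a median of -0.089. The part of this shift in the differences of dim members was not tested. Dim here means a mean level at or below the 95th percentile of these receptor genes, which holds for 59 of the 75 members.

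None of the 75 genes passed the test across all genes. The limma fit called 0 of them at an adjusted p under 0.05, against 2 of all 22180 genes or 0.00902%, both of them lower in Stat2 KO hosts and neither a member. The smallest adjusted p of a member was 0.486, that of Adamts8. At an unadjusted p under 0.05 there were 11 members, or 14.7%, where the same fit gave 8.82% of all genes. Of these, 5 were lower in Stat2 KO hosts (3.48% of all genes) and 6 were higher (5.34% of all genes). Leaving out 1 tumour moved this count of 11 to between 6 (WT replicate 2) and 14 (WT replicate 3). The count also rose without Stat2 KO replicate 1. It fell to 7 without Stat2 KO replicate 2, to 7 without Stat2 KO replicate 3 and to 8 without WT replicate 1. The share of all genes at that p moved too. It ran from 5.31% without WT replicate 2 to 14.7% without Stat2 KO replicate 1. The 3 tumours of each group did not overlap for 14 members, against 13.3% of all genes, and 2 of these members were lower (5.11% of all genes) and 12 higher (8.23% of all genes). Of all members 30 read lower and 45 higher, with a median difference of 0.089 beside 0.021 over all genes. After median centring the split was 37 lower and 38 higher.

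The members covered a wide range of levels. The array gives no detection call here, and probe sets differ in how strongly they bind, so a level is compared with the olfactory receptor genes only and not ranked between genes. Their median was 5.21 and their 95th percentile 6.72 (log2). Of the 75 members, 16 read above that percentile and 17 below that median. The 16 were Adam9, Mmp14, Timp2, Adamts1, Adam10, Adam12, Adam17, Adam15, Adamts12, Adam23, Adamts4, Timp3, Timp1, Adamts9, Adamts20 and Mmp2. Their median difference was -0.026, beside -0.089 for all genes that bright. The 59 dimmer members had a median of 0.12, beside 0.099 for all genes that dim. The median 95% interval of a member's difference reached 0.34 log2 units to each side, and the number of arrays limits this precision.

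**Figure D1:**
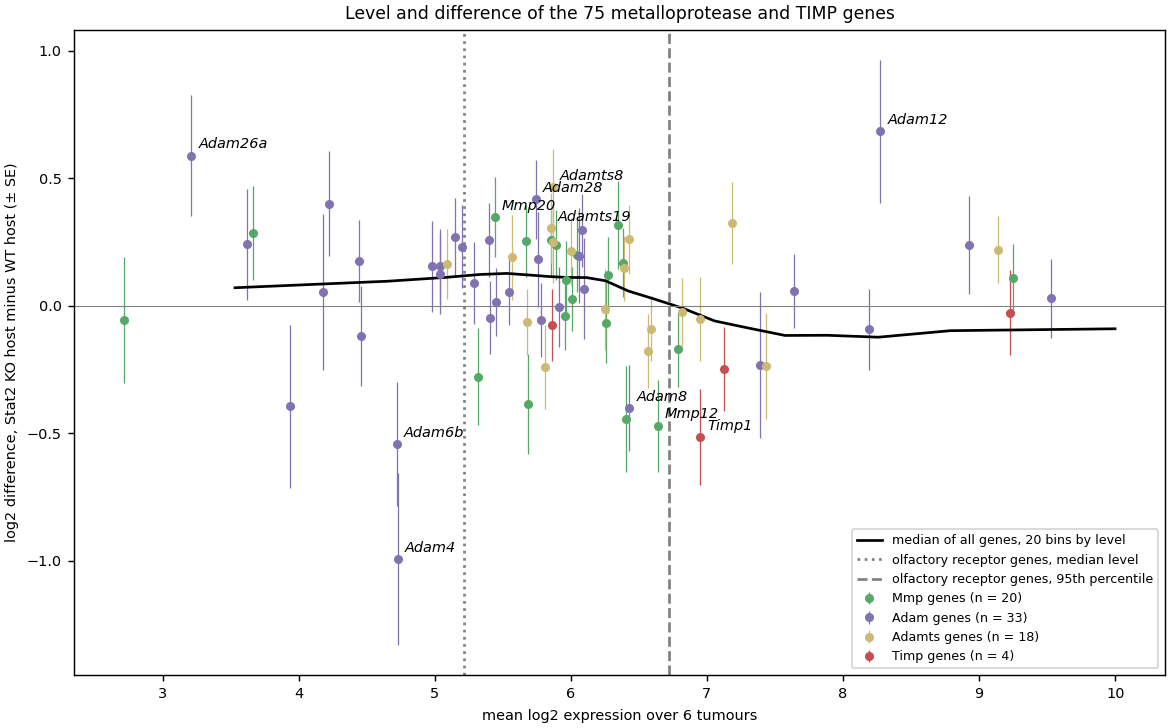
Difference between Stat2 KO and WT hosts (log2, vertical axis, bars are SEs) against mean log2 level (horizontal axis) for the 75 members, coloured by family, with the median of all genes in 20 bins of level as a black line and the olfactory receptor levels as vertical lines. The black line runs from above 0 for dim genes to below 0 for bright genes, and the members scatter around it, with 16 of them to the right of the dashed line.

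**Figure D2:**
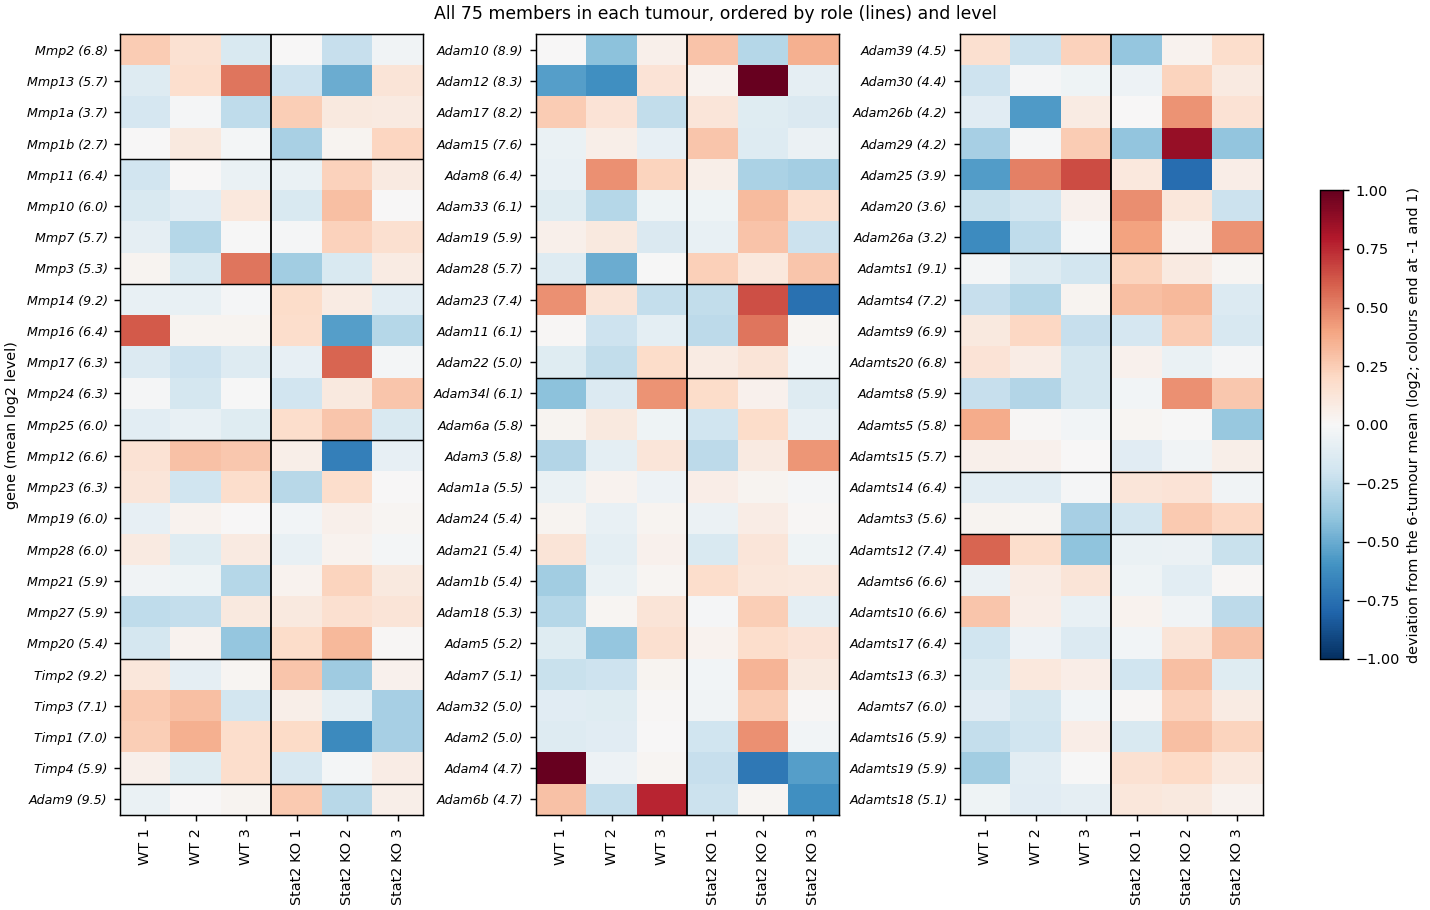
Deviation of each of the 75 members in each tumour from its mean over the 6 tumours (log2, colour, ending at 1 unit to each side), ordered by role and level, with WT tumours left and Stat2 KO tumours right of each vertical line. The gene's mean log2 level stands in brackets, and in most rows the colours of both groups mix, the groups having overlapped for 61 members.

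A row of neighbouring matrix metalloprotease genes carried differences of both signs. On chromosome 9, 10 Mmp genes follow each other with no other protein-coding gene between them in the RefSeq annotation of GRCm38.p6, and 9 of them are members, Mmp8 being left out. They hold the collagenases, the stromelysins, the macrophage elastase and matrilysin, enzymes that cytokines and growth factors are known to switch on through AP-1, the Fos and Jun transcription factors. The promoters of 6 of them are printed here because the row shares 2 sequence features that did not enter the choice of the genes. Each line gives the 100 bases before an annotated transcription start, 5′ to 3′ on the plus strand of GRCm38.p6 from RefSeq, at chr9:7272414-7272513 for Mmp13, chr9:7347274-7347373 for Mmp12, chr9:7445722-7445821 for Mmp3, chr9:7464041-7464140 for Mmp1a, chr9:7502242-7502341 for Mmp10 and chr9:7691990-7692089 for Mmp7. Capitals mark TGANTCA, the loose form in which the AP-1 motif was searched, with N any base, and the TATA box TATAAA.
Mmp13: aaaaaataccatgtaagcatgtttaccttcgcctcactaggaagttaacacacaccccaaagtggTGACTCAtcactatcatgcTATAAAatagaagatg
Mmp12: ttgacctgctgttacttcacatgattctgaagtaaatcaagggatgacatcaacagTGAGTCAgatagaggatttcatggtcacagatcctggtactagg
Mmp3: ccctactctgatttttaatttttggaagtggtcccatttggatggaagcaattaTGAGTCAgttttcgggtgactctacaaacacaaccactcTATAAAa
Mmp1a: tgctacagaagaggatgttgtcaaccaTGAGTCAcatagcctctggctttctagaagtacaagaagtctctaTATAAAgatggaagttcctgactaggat
Mmp10: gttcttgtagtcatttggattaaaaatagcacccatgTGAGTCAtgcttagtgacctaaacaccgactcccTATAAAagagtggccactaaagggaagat
Mmp7: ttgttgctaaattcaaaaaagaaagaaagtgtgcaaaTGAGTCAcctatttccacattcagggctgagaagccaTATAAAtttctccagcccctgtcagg

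Of the 75 members, 46 had a promoter in the RefSeq table, which covers 250 bases before and 50 after each annotated start, and a gene was counted when any of its starts held the motif on either strand. TGANTCA stood in 8 of the 9 members of the row, against 5 of the 37 other members and 8.97% of all 27025 genes in the table. Its first base lay between 35 and 95 bases before the start, at 35 in Mmp13, 44 in Mmp12 and 46 in Mmp3, and at 73 in Mmp1a and 63 in both Mmp10 and Mmp7. The match in Mmp20, at 95 bases, read TGAATCA and is not printed, whereas the printed matches read TGAGTCA or TGACTCA. Mmp27 was the member of the row without a match. Mmp12 and Mmp7 have 2 annotated starts in the table, and the printed one holds the match in each case. TATAAA stood in 8 of the 9, against 15.7% of all genes, and did not overlap TGANTCA in the printed stretches. In Mmp12 it lies after the annotated start and outside the printed stretch. The core of the interferon-stimulated response element, searched as GAAA, any 2 bases and again GAAA, to which STAT2 complexes are known to bind, stood in 1 member, Mmp13, beside 3.99% of all genes. The gamma-activated sequence TTCNNNGAA stood in 4 members, or 8.70%, beside 9.55% of all genes. These matches describe letters in a window and not bound sites.

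Along this row the differences changed sign once. The first 4 members in chromosomal order read lower in Stat2 KO hosts, with differences of -0.39 for Mmp13, -0.47 for Mmp12, -0.054 for Mmp1b and -0.28 for Mmp3. The next 5 read higher, with 0.29 for Mmp1a, 0.10 for Mmp10, 0.26 for Mmp27, 0.35 for Mmp20 and 0.26 for Mmp7. This order was noticed after the values were seen, and 0 of the 9 passed the adjusted test. All 9 lay below the 95th percentile of olfactory receptor genes, and of them Mmp1a and Mmp1b also lay below the median.

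**Figure D3:**
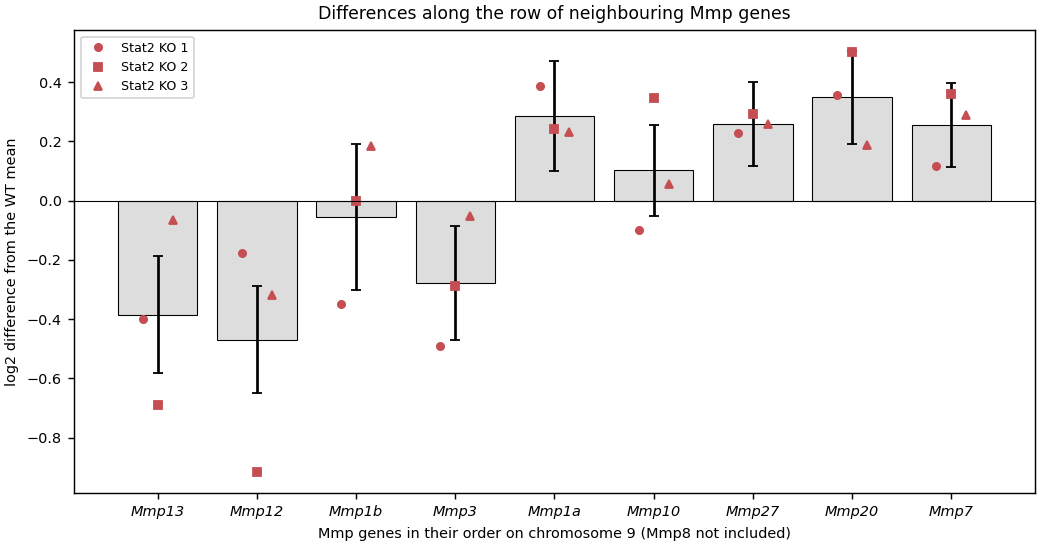
Difference from the WT mean (log2) of the 9 members of the chromosome 9 row in their order on the chromosome, as bars with the SE of the difference, and of each Stat2 KO tumour as a point. The 4 bars at the left lie below 0 and the 5 at the right above 0, and Stat2 KO replicate 2 is the lowest point for Mmp13 and Mmp12 and the highest for Mmp10, Mmp20, Mmp27 and Mmp7.

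Mmp12, the elastase of macrophages, read 6.70, 5.96 and 6.56 in the Stat2 KO hosts against 6.78, 6.93 and 6.91 in WT hosts. The groups did not overlap, the Stat2 KO values being the lower ones and Stat2 KO replicate 2 the lowest. The mean was 6.40 ± 0.392 against 6.87 ± 0.081 (SD, n = 3 each), a difference of -0.47 (SE 0.181; limma adjusted p = 0.521), which shrank to -0.25 when Stat2 KO replicate 2 was left out. Macrophage markers also read lower. Of the 13 measured ones, 11 read lower in Stat2 KO hosts, as did 10192 of all 22180 genes. An unadjusted p under 0.05 was reached by 5, all lower (3.48% of all genes), and 0 of the 13 passed the adjusted test. Their mean level ran from 6.12 to 6.37 in the Stat2 KO and from 6.44 to 6.63 in the WT tumours, and none of them lay below the olfactory receptor median. Among them the complement gene C1qb differed by -0.95 and Cd68, a lysosomal glycoprotein, by -0.61. The part of the macrophage markers in the Mmp12 difference was not tested.

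Mmp13, a collagenase, read 5.48, 5.19 and 5.81 in the Stat2 KO hosts and 5.55, 5.86 and 6.22 in the WT hosts. The groups overlapped, and the highest value was WT replicate 3, without which the difference of -0.39 (SE 0.197; limma adjusted p = 0.598) was -0.21. Leaving out Stat2 KO replicate 2 gave -0.23. Mmp2, which degrades gelatin and basement membrane collagen and is activated at the cell surface, read 6.70 ± 0.126 in Stat2 KO hosts against 6.87 ± 0.211 in WT hosts (SD, n = 3 each), a difference of -0.17 (SE 0.147; limma adjusted p = 0.731) with groups that overlapped. Mmp20, the protease of tooth enamel, read 5.62, 5.77 and 5.45 against 5.27, 5.48 and 5.06, a difference of 0.35 (SE 0.156; limma adjusted p = 0.562). Its groups overlapped, and its level was that of the dim genes, whose median difference was 0.099.

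Of the membrane-type matrix metalloproteases, 5 were measured. Mmp14, which opens the precursor of Mmp2 at the cell surface and cuts fibrillar collagen, was the 1 among them that read above 95% of olfactory receptor genes. Its values were 9.43, 9.33 and 9.14 in Stat2 KO and 9.17, 9.17 and 9.24 in WT hosts. They overlapped, with a difference of 0.11 and a 95% interval from -0.18 to 0.40 (limma adjusted p = 0.811), and with 1 tumour left out it ran from 0.044 (Stat2 KO replicate 1) to 0.19 (Stat2 KO replicate 3). Mmp16, a relative of Mmp14, read 6.58, 5.86 and 6.12 against 7.02, 6.43 and 6.43. The WT values lay higher except that Stat2 KO replicate 1 stood above WT replicates 2 and 3, and the difference was -0.44 (SE 0.206; limma adjusted p = 0.568), or -0.25 without WT replicate 1 and -0.28 when Stat2 KO replicate 2 was left out. The other 3 of this class, Mmp17, Mmp24 and Mmp25, read higher by 0.12 to 0.32 at levels below the 95th percentile of olfactory receptor genes.

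The 4 TIMPs all read lower in Stat2 KO hosts, with a median difference of -0.16 and 0 members past the adjusted test. Of the 4, 3 read above 95% of olfactory receptor genes. Among all genes that bright, 6323 of 8827 read lower, with a median of -0.089. Timp1, a secreted inhibitor that cytokines induce, read 7.14, 6.31 and 6.62 in the Stat2 KO and 7.20, 7.30 and 7.13 in the WT hosts. The WT tumours lay close together, and Stat2 KO replicate 1 lay among them while the other Stat2 KO tumours lay below. The mean was 6.69 ± 0.419 against 7.21 ± 0.089 (SD, n = 3 each), a difference of -0.52 (SE 0.188; 95% interval -0.92 to -0.11; limma adjusted p = 0.509), which is a change of -30.1%. Leaving out Stat2 KO replicate 2 gave -0.33, and leaving out Stat2 KO replicate 1 gave -0.74. Timp3, which binds to the matrix and also inhibits Adam17, read 7.19, 7.03 and 6.79 against 7.39, 7.43 and 6.94, with groups that overlapped and a difference of -0.25 (SE 0.165; limma adjusted p = 0.662). With 1 tumour left out this ran from -0.40 (WT replicate 3) to -0.14 (Stat2 KO replicate 3). Timp2, which inhibits Mmp2 and also takes part in its activation by Mmp14, read 9.50, 8.87 and 9.27 against 9.34, 9.13 and 9.25. Its difference of -0.027 had a 95% interval from -0.39 to 0.34, and it turned to 0.037 after a further quantile normalization, to 0.066 after cyclic loess and to 0.046 with array weights. Timp4 differed by -0.075 (95% interval -0.38 to 0.23), was -0.0046 when WT replicate 3 was left out and turned to 0.045 with array weights. Timp2 also turned to 0.14 when Stat2 KO replicate 2 was left out. Thus the 4 TIMPs shared 1 direction in the main fit but not under every alternative.

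Fibroblast markers read lower as well. Of 12 measured markers 10 read lower, beside 10192 of all 22180 genes. Of the 12, 6 read above 95% of olfactory receptor genes, and of all genes that bright 6323 of 8827 read lower. An unadjusted p under 0.05 was reached by 4 of the markers, all lower (3.48% of all genes). Mean levels of the 12 ran from 6.42 to 6.78 in the Stat2 KO and from 6.85 to 7.15 in the WT tumours. The lowest of these levels was that of Stat2 KO replicate 2, which also held the lowest Timp1 and Timp2 values, whereas the lowest Timp3 value was in Stat2 KO replicate 3 and the lowest Timp4 value in Stat2 KO replicate 1. All 12 lay above the olfactory receptor median, and 0 passed the adjusted test. The collagen-binding proteoglycan gene Dcn differed by -0.94, the membrane glycoprotein gene Pdpn by -0.93 and Lum, also a collagen-binding proteoglycan gene, by -1.21. The part of these markers in the TIMP differences was not tested.

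**Figure D4:**
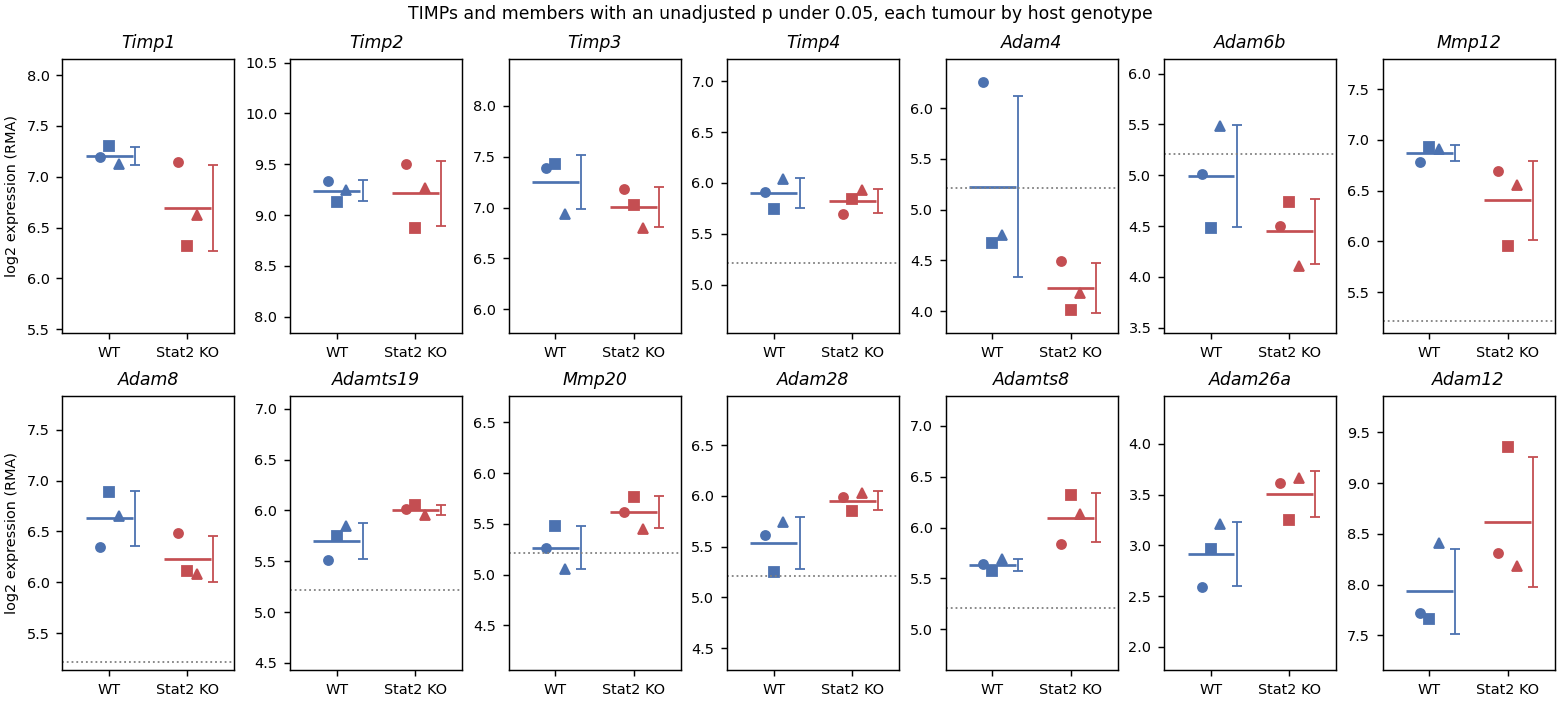
Log2 expression of the 4 TIMPs and of the other 10 members with an unadjusted p under 0.05 in each tumour, by host genotype, with group means as lines and SDs as bars. The median olfactory receptor level is a dotted line in those panels whose range reaches it. Replicate number sets the symbol (circle 1, square 2, triangle 3), and every panel spans the same range of log2 units. The groups do not overlap for Adam4, Mmp12, Adamts19, Adam28, Adamts8 and Adam26a. Adam4 lies below the dotted line in all tumours but WT replicate 1. Adam26a lies below that level in all tumours, and its panel ends short of the line.

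Among the 9 ADAM proteases of body tissues 3 had an unadjusted p under 0.05, beside 8.82% of all genes, and none passed the adjusted test. Adam12, which sheds growth factors such as Hbegf and is known from muscle, bone and tumour stroma, had the largest positive difference of all 75 members. It read 8.31, 9.36 and 8.19 in Stat2 KO hosts against 7.72, 7.66 and 8.41 in WT hosts. Stat2 KO replicate 2 stood apart, and WT replicate 3 lay above the other Stat2 KO tumours, so the groups overlapped. The mean was 8.62 ± 0.644 against 7.93 ± 0.414 (SD, n = 3 each), a difference of 0.68 (SE 0.282; limma adjusted p = 0.538), or 1.61-fold. Without Stat2 KO replicate 2 it was 0.31, and without WT replicate 3 it was 0.92.

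Adam8, an ADAM of leukocytes, read 6.49, 6.11 and 6.09 in Stat2 KO against 6.35, 6.89 and 6.65 in WT hosts. Its groups overlapped through Stat2 KO replicate 1 and WT replicate 1, and the difference was -0.40 (SE 0.169; limma adjusted p = 0.541). Adam28, found on lymphocytes and in some carcinomas, read 5.99, 5.85 and 6.02 against 5.61, 5.25 and 5.74. The Stat2 KO tumours were the 3 highest, with a difference of 0.42 (SE 0.155; limma adjusted p = 0.509), at a dim level, and of 0.28 when WT replicate 2 was left out. The T cell markers, also dim, read higher in 7 of 8 measured genes, with a median difference of 0.076. Of the 8, 0 lay above the 95th percentile of olfactory receptor genes. Among all genes that dim, 9484 of 13353 read higher, with a median of 0.099. The part of the T cell markers in the Adam28 difference was not tested.

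For the broadly used sheddases, the intervals of the difference included 0. Adam10, which cuts Notch receptors and cadherins, read 9.21, 8.64 and 9.28 in Stat2 KO hosts against 8.93, 8.51 and 8.98 in WT hosts, a difference of 0.24 (95% interval -0.18 to 0.65; limma adjusted p = 0.714). With 1 tumour left out this ran from 0.092 (WT replicate 2) to 0.44 (Stat2 KO replicate 2). Adam17, which releases TNF and ligands of the EGF receptor, read 8.31, 8.07 and 8.05 against 8.44, 8.33 and 7.94. Its difference was -0.092 with an interval from -0.44 to 0.25. Adam9 and Adam15, ADAMs that cleave growth factors and bind integrins, differed by 0.029 (interval -0.31 to 0.36) and 0.059 (interval -0.26 to 0.37). Both turned negative after median centring, at -0.046 and -0.016. These intervals do not show that the hosts were equal.

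Adam23 belongs to the ADAMs without protease activity, which act in cell adhesion. It read 7.15, 8.03 and 6.64 in Stat2 KO hosts against 7.85, 7.52 and 7.15 in WT hosts. The spread among Stat2 KO tumours, 0.704 (SD, n = 3), exceeded the difference of -0.23 (SE 0.288; limma adjusted p = 0.811), which became -0.61 when Stat2 KO replicate 2 was left out and 0.084 when Stat2 KO replicate 3 was. Adam11 and Adam22 differed by 0.20 and 0.12.

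**Figure D5:**
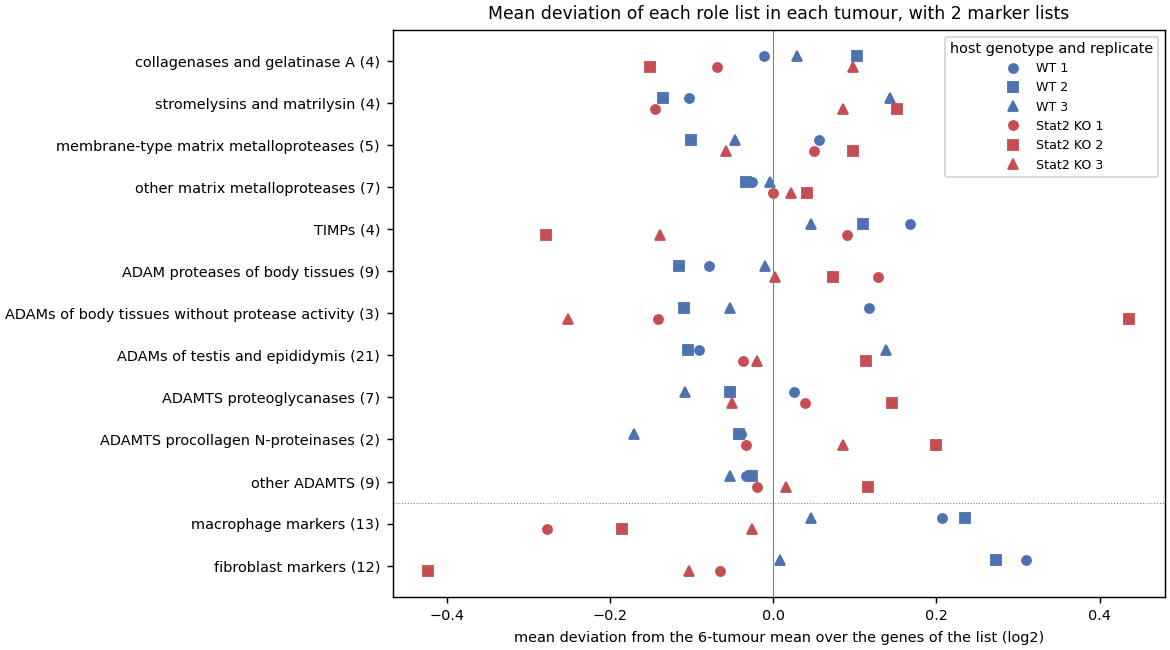
Mean deviation from the mean over 6 tumours (log2, horizontal axis) in each tumour, over the members of each role list and, below the dotted line, over macrophage and fibroblast markers, with the number of genes in brackets. WT tumours are blue and Stat2 KO tumours red, and the symbol gives the replicate. The TIMPs lie between -0.278 and 0.091 in Stat2 KO and between 0.047 and 0.167 in WT tumours, and both marker lists separate the groups with Stat2 KO tumours lower. The 4 role lists of other matrix metalloproteases, ADAM proteases of body tissues, ADAMTS procollagen N-proteinases and other ADAMTS separate them narrowly with Stat2 KO tumours higher. In this order, the lowest Stat2 KO and highest WT tumours lie at -0.00021 and -0.0042, 0.0024 and -0.0098, -0.033 and -0.039, and -0.020 and -0.026. Of all dim genes, 9484 of 13353 read higher in Stat2 KO hosts. Of the 9 ADAM proteases of body tissues 5 were brighter, as was 1 of the 9 other ADAMTS. Among all genes that bright, 2504 of 8827 read higher.

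Of the ADAMTS genes, 18 were measured, 10 of them higher and 8 lower, with 0 past the adjusted test. Among the proteoglycanases, which cut versican and aggrecan, Adamts1 read 9.36, 9.23 and 9.15 in Stat2 KO hosts against 9.12, 9.01 and 8.95 in WT hosts. The groups did not overlap. The difference of 0.22 (SE 0.132; 95% interval -0.07 to 0.51; limma adjusted p = 0.634) did not pass. Adamts1 was the 1 member among the 16 bright ones whose groups did not overlap, beside 994 of all 8827 genes that bright. Adamts4 read 7.49, 7.51 and 7.05 against 6.95, 6.90 and 7.22, a difference of 0.32 (SE 0.160; limma adjusted p = 0.588) with groups that overlapped. Adamts9 and Adamts20, the latter required for the survival of pigment cell precursors, differed by -0.053 and -0.025, with intervals from -0.41 to 0.31 and from -0.32 to 0.27.

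Adamts8 had the smallest p of all members. It read 5.84, 6.32 and 6.14 in Stat2 KO hosts against 5.64, 5.57 and 5.69 in WT hosts, a difference of 0.46 (SE 0.150; limma adjusted p = 0.486) without overlap. A second probe set of Adamts8 differed by -0.097 (SE 0.155), opposite in sign, and the mean of both probe sets differed by 0.18. Adamts19 read 6.01, 6.05 and 5.96 against 5.51, 5.75 and 5.85, a difference of 0.31 (SE 0.139; limma adjusted p = 0.564), with no overlap. Both genes were dim. Adamts12, which is known to degrade cartilage matrix, read 7.36, 7.38 and 7.21 against 8.02, 7.61 and 7.03. The WT tumours spread around the Stat2 KO tumours, and the difference of -0.24 (SE 0.207; limma adjusted p = 0.735) was -0.0038 without WT replicate 1 and -0.49 without WT replicate 3.

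ADAMs of testis and epididymis, known mainly for their roles in sperm, gave 21 members. None of them read above the 95th percentile of olfactory receptor genes, and 13 read below the median. Their differences ran both ways, with 15 higher and 6 lower, a median of 0.089 and 3 at an unadjusted p under 0.05. Among all dim genes, 9484 of 13353 read higher, the median was 0.099 and 9.50% reached that p. The most negative difference of all 75 members was that of Adam4, -0.99 (SE 0.338; limma adjusted p = 0.490). It read 4.50, 4.01 and 4.18 in Stat2 KO against 6.25, 4.67 and 4.75 in WT hosts. WT replicate 1 alone stood above the olfactory receptor median, and without it the difference was -0.48. Adam6b differed by -0.54 (SE 0.243) with overlapping groups and by -0.30 without WT replicate 3. Adam26a differed by 0.59 (SE 0.238), with means of 2.92 in WT and 3.51 in Stat2 KO hosts (n = 3 each), at levels among the dimmest of the members. Neither Adam6b nor Adam26a passed (limma adjusted p = 0.560 and 0.528).

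The 48 members that the naming rule did not pick by level, p or size included 33 with a higher and 15 with a lower reading in Stat2 KO hosts. Their differences lay between -0.39 and 0.40, and the smallest unadjusted p-value among them came to 0.0618 in the limma fit. Of the 6 members with a second probe set, Adam15, Mmp11 and Adamts8 changed sign between the pair, and Adam19, Mmp7 and Adamts14 did not.

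The partners and substrates of these enzymes were read from lists of the pathway. None of their genes passed the adjusted test, and the counts here are those at an unadjusted p under 0.05, which 8.82% of all genes reached (3.48% lower and 5.34% higher). Of 9 genes of the plasminogen system, which opens several of the precursors, 1 was lower, the plasminogen activator inhibitor gene Serpinb2, by -0.38 (SE 0.139). Of 20 activators, partners and inhibitors 3 were lower and 1 higher. Tspan15 and Tspan5, tetraspanins that carry Adam10 to the cell surface, differed by -0.40 (SE 0.151) and -0.36 (SE 0.140), and Lrp1, the receptor that takes up matrix proteases and their inhibitors, by -0.36 (SE 0.149). Spock3, a proteoglycan of the testican family, differed by 0.36 (SE 0.133) at a dim level. Of 7 ADAMTS-like genes none reached that p.

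Of 23 surface proteins that ADAMs shed, 2 reached that p, a share close to the 8.82% of all genes in either direction. Both were lower, as were 3.48% of all genes at that p. Cxcl16, a chemokine released by Adam10, differed by -0.33 (SE 0.132), and Cdh5, the cadherin of vessels, by -0.45 (SE 0.196). Of 15 matrix proteins that these proteases cut, 2 were lower and 2 higher. The fibronectin gene Fn1 differed by -0.68 (SE 0.216) and the tenascin gene Tnc by -0.40 (SE 0.155), and both read above 95% of olfactory receptor genes. The aggrecan gene Acan and the laminin gene Lama1, both dim, differed by 0.30 (SE 0.128) and 0.40 (SE 0.136).

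Other cell type lists gave small counts, to be read beside the 8.82% of all genes that reached an unadjusted p under 0.05. At an unadjusted p under 0.05 the numbers were 1 of 10 endothelial markers, 0 of 11 neutrophil markers, 0 of 11 melanocyte markers, 1 of 9 keratinocyte markers, 1 of 10 skeletal muscle markers and 1 of 8 T cell markers. The median differences of the first 5 of these lists were 0.0070, 0.13, -0.13, 0.18 and 0.14. The neutrophil, keratinocyte and muscle markers had 0 genes above the 95th percentile of olfactory receptor genes, and their part in the differences of the dim members was not tested.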

How the data were processed

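RNA of 6 tumours was hybridized to Affymetrix arrays, 1 array each. The authors deposited log2 values, 1 per probe set and array. Per the submitters' processing notes, RMA and Affymetrix Expression Console 1.3.1 were used. The genome build was not given in the sources used here. Of 41345 probe sets, the platform annotation names 1 gene for 23521, several for 1814 and none for 16010, and 23328 of those with 1 gene matched the reference gene table, with 0 symbols changed. Each gene was read from its brightest such probe set, which gave 22180 genes. Dim probe sets were kept. No detection calls, probe intensities or scan dates were used, so no batch was examined.

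Differences (Stat2 KO minus WT host) were fitted with limma 3.58.1 (R 4.3.3; lmFit, then eBayes with trend), 4 residual and 8.14 prior degrees of freedom, two-sided, with Benjamini-Hochberg adjustment over 22180 genes and a threshold of 0.05. The fit was tested on simulated data. An exact permutation test of 3 against 3 tumours cannot give a p below 0.1.

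Members and lists were chosen with earlier results of these data known. Members with values are the TIMPs, the 15 brightest, those with an unadjusted p under 0.05 and the 5 largest differences each way above the olfactory receptor median, 27 in all. Up to 4 genes of a pathway or cell list could be named. The other members of the chromosome 9 row, Mmp2, Mmp11, Mmp17, Mmp24, Mmp25, Adam11, Adam19, Adam22 and Adamts14 were named beyond this rule after their values were seen. Alternatives were other normalizations, a filter on dim genes, the mean of probe sets, other moderation, array weights, a replicate block, other thresholds and each array left out. Proteins were not used, since no sequences of them were at hand.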

Additional observations from a re-analysis of the deposited data

How the results depend on the processing

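Under 15 alternatives, 6 of them leaving out 1 array, 0 of the members tested had an adjusted p under 0.05 in limma, and the lowest was 0.0575, for Timp1 and Adamts8 with array weights. The count of all genes called, 2, was 0 after quantile normalization and after cyclic loess, 1 without the trend, 257 with array weights, and 0 to 17 when 1 array was left out. The members with an unadjusted p under 0.05, 11, were 5 of 25 among genes brighter than the median gene, 26 with array weights (where 22.6% of all genes passed) and 6 to 14 with 1 array left out. With an adjusted p under 0.05 or under 0.1 as the threshold there were 0 and 0. The median difference of members, 0.089, was 0.014 after median centring, -0.027 among genes brighter than the median gene and 0.15 without WT replicate 3, its highest value with 1 array left out, where the lowest was 0.039, without WT replicate 1. Median centring moved the median of all genes from 0.021 to -0.054. Of 27 named members 19 kept their sign throughout and 8 did not. Adam15 turned to -0.016 after median centring, -0.0090 with the mean of its probe sets and -0.018 with array weights, Adam9 to -0.046 after median centring, Timp2 to 0.037 after quantile normalization, 0.066 after cyclic loess and 0.046 with array weights, and Timp4 to 0.045 with array weights. With 1 array left out, Adam15 ran from -0.064 to 0.14, Adam17 from -0.24 to 0.0097, Adam23 from -0.61 to 0.084, Adam9 from -0.094 to 0.17, Adamts20 from -0.12 to 0.037, Adamts9 from -0.19 to 0.039 and Timp2 from -0.17 to 0.14. The cause of these changes was not tested. The labels number the tumours 1 to 3 in both groups without saying that a number pairs them. Same-numbered tumours correlated at 0.24, 0.079 and 0.030 in their deviations from the group means, and 3 of 6 correlated best with their own number. With the replicate block 11 members had an unadjusted p under 0.05, 9 of them among the 11 without it, 0 members were called, and 3 genes in all were called. Only 6 arrays and the lack of detection calls limit what can be said of dim members.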
